A study of Mus musculus with 7 samples.

Results

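The neighbours of Eomes on mouse chromosome 9 were followed across all libraries of a 3′ RNA-seq series. The 8 genes are 4933432G23Rik, Cmc1, Azi2, Golga4, Oxsr1, Ctdspl, Itga9 and Rbms3, which were chosen for their position and found by NCBI gene number, and they make up 8 of the 24990 features in the deposited tables. The series measured polyadenylated RNA of embryoid bodies, balls of cells in which embryonic stem cells leave pluripotency, after 4 days of differentiation. Every library came from R1, an established mouse embryonic stem cell line, and from hanging drops of 500 cells in 27 µl that were seeded once feeder fibroblasts had been depleted on gelatin. By their titles, 2 libraries were wild type (WT1 and WT2), 2 had the promoter of the long noncoding RNA gene Meteor knocked out (pKO1 and pKO2), 1 had it inverted (pInv), 1 carried an empty vector (Ctrl) and 1 a CRISPR knockdown of Meteor (KD). The title of the series ties Meteor to the level of Eomes.

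Groups follow the titles here, but the genotype field of the labels gives something else for 5 of the 7 libraries. There, WT1 and WT2 are promoter knockouts, pKO1 is the inversion, and pKO2 and pInv are wild type, so every direction between these groups rests on the titles being right. The knockdown is called Cas9 in the text on the design and dCas9 in the label of the library. The labels do not say whether the edited lines were single clones or whether replicate libraries were grown as separate cultures, so p-values measure the spread of these libraries only, which may be technical. The targeted RNA does not check the titles, since no row of the tables was matched to Meteor by name.

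Eomes encodes a T-box transcription factor that is needed for mesoderm and definitive endoderm to form at the primitive streak. Genes on both sides of a regulated gene are often measured when its promoter or enhancers are altered, because enhancers can act on more than 1 promoter of a region and because transcription of a noncoding gene can influence its neighbours. The genes followed here have different cellular roles, and what they share is their place on the chromosome.

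In the order of the reference gene table, 4 of the 8 lie upstream of Eomes and 4 downstream. Upstream, 4933432G23Rik is a noncoding gene 4 listed genes away. Cmc1 is the coding gene in place 2 upstream, Azi2 the one in place 3 and Rbms3 the one in place 5. Downstream, Golga4 is in place 1, Itga9 in place 2, Ctdspl in place 3 and Oxsr1 in place 10. The listed intervals of Cmc1 and Azi2 overlap, with the genes on opposite strands. The expected counts of both were whole numbers, so no division of reads between them was seen. Without a stated strand setting, the strand that a read in the overlap came from is not known. The interval of 4933432G23Rik overlaps that of another noncoding gene, Platr11, and 4933432G23Rik was the 1 gene of the 8 whose expected counts were not whole numbers (tolerance 0.005). RSEM divides reads that match several features, which leaves such fractions.

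The promoters of 3 upstream neighbours are shown beside that of Eomes, because 4933432G23Rik was high in WT2 and pKO2, Cmc1 was high in KD and Azi2 overlaps Cmc1, and because the 3 differ widely in CpG content. Each runs 5′ to 3′ on its gene's strand from 250 bases before the start to 50 after it, from RefSeq on GRCm38.p6, and capitals mark CG dinucleotides. The windows are chr9:118429589-118429888 (plus strand) for 4933432G23Rik, chr9:118150147-118150446 (minus strand) for Cmc1, chr9:118040272-118040571 (plus strand) for Azi2 and chr9:118477939-118478238 (plus strand) for Eomes.
4933432G23Rik: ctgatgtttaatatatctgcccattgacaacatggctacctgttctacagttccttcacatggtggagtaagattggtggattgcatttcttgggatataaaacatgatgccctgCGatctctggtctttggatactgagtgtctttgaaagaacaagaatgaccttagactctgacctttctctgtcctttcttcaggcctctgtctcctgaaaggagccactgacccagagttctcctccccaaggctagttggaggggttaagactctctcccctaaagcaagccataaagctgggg
Cmc1: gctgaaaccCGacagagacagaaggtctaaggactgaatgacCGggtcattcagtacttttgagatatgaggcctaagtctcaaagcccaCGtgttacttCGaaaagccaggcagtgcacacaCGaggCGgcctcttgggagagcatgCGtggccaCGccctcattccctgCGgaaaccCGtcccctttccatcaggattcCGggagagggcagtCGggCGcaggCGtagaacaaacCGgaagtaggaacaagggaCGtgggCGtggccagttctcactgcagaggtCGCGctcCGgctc
Azi2: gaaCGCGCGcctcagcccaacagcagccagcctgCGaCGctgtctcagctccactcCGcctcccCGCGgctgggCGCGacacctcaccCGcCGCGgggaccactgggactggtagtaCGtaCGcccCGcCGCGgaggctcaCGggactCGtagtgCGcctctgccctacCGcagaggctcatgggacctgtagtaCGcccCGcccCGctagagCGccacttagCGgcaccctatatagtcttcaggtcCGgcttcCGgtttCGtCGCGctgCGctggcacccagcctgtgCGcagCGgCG
Eomes: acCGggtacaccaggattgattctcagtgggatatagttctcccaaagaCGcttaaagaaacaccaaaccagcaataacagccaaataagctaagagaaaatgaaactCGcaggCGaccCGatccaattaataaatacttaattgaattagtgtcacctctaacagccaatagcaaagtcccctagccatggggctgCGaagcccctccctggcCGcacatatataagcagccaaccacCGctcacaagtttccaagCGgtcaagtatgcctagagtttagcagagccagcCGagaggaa
The window of 4933432G23Rik held 1 CG and was 46.3% G and C. The window of Cmc1 held 20, that of Azi2 36 and that of Eomes 10. Over all 32851 promoter windows in the table the median was 7, with quartiles of 3 and 20, so the Azi2 window was above the upper quartile and the 4933432G23Rik window below the lower.

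Of the other genes, Ctdspl had 43 CGs in its window, Oxsr1 24, Itga9 10 and Rbms3 7 in each of its 2 windows, while Golga4 was not in the table. A T-box motif was searched on both strands. GGTGTGA was in 3.98% of all windows and the longer AGGTGTGA, which contains it, in 1.28%. Neither was in any of the 8 windows of the 7 genes, which says only that these letters are not in those windows.

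Levels are given as CPM, counts scaled to a library's effective size (its total adjusted by the TMM method), and are not compared between genes. Depth was low: the libraries held from 1898350 (WT2) to 2564478 (WT1) expected counts, of which the 45S ribosomal RNA precursor took 12.9% (pInv) to 24.1% (WT2). Reads were not counted as molecules in any stated way, so the 95% intervals below cover counting error only. In bulk RNA, fewer cells of a type and less RNA per cell cannot be told apart. Markers of pluripotent cells, epiblast (1254 to 1875 CPM in sum), primitive streak and endoderm (108 to 434) were present in every library, and WT2 stood apart in some of them. The summed level of 7 primitive streak genes was 455 CPM in WT2 against 939 to 1467 elsewhere, and that of 6 pluripotency genes 2371 in WT2 against 1163 to 1893 elsewhere. Pou5f1 made up most of the pluripotency sum, at 2178 CPM in WT2, and like Zfp42 and Dppa4 it was highest there. Sox2 and Esrrb were not highest in WT2, and Nanog was lowest there, at 7.77 CPM. Neuroectoderm markers summed to 0 to 4.28 CPM.

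Eomes itself was at 457 CPM (WT1) and 311 CPM (WT2) in wild type, 336 (pKO1) and 443 (pKO2) with the promoter knocked out, 388 (pInv), 420 (Ctrl) and 398 (KD). The 2 WT libraries were the highest and the lowest of the 7, with WT2 at 0.680 of WT1 (exact binomial 95% interval 0.613 to 0.754) and pKO2 at 1.32 times pKO1 (1.20 to 1.45).

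The 8 neighbours fell into 5 that were well detected, with a mean of 20 CPM or more, 2 that were near the detection limit in most libraries (Cmc1 and Itga9) and 1 that was not detected in 6 of 7 libraries (Rbms3). The noncoding gene 4933432G23Rik (no function is given here) was at 84.7 CPM (WT1) and 166 CPM (WT2) in wild type, 102 (pKO1) and 132 (pKO2) with the promoter knocked out, 83.6 (pInv), 100.1 (Ctrl) and 103 (KD). WT2 and pKO2 were high and the other 5 libraries lay close together, from 83.6 to 103. The intervals of WT2 (147 to 187) and of pKO2 (118 to 148) each lay above those of all 5. The library numbered 2 was thus the higher in both pairs, by 1.96 times in WT (1.64 to 2.35) and by 1.30 times in pKO (1.09 to 1.55), and WT and pKO overlapped. With library totals in place of TMM, the ratio of the WT libraries was 1.65 (1.38 to 1.98).

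Azi2, an adaptor of the kinase TBK1 in the response that leads to type I interferon, was at 21.6 CPM (WT1) and 29.3 CPM (WT2) in wild type, 22.8 (pKO1) and 24.5 (pKO2) with the promoter knocked out, 15.2 (pInv), 22.7 (Ctrl) and 29.9 (KD). The order ran from pInv through WT1, Ctrl, pKO1, pKO2 and WT2 to KD. Only pInv against WT2 and pInv against KD had intervals that did not overlap, at 10.6 to 21.0 in pInv against 21.7 to 38.7 and 23.1 to 38.1, and libraries next to each other in that order overlapped. In the deposited TPM values, KD was not the highest library for Azi2, at 18.6 against 19.6 in Ctrl and 25.1 in WT2.

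Golga4, a coiled-coil golgin of the trans-Golgi network and the first coding gene downstream of Eomes, was the steadiest of the 8. It was at 90.7 CPM (WT1) and 107 CPM (WT2) in wild type, 94.2 (pKO1) and 108 (pKO2) with the promoter knocked out, 91.6 (pInv), 98.6 (Ctrl) and 86.4 (KD). Its highest library was at 1.25 times its lowest, and all 7 intervals overlapped in each of 21 pairs.

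Oxsr1, a kinase that WNK kinases activate and that phosphorylates cation-chloride cotransporters, was at 23.1 CPM (WT1) and 28.1 CPM (WT2) in wild type, 23.3 (pKO1) and 25.3 (pKO2) with the promoter knocked out, 18.6 (pInv), 26.3 (Ctrl) and 23.4 (KD). pInv was lowest, and here too all intervals overlapped. WT2 was highest with TMM scaling, but stood near the mean of the 7 (1.03 times) with library totals.

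Ctdspl, a small phosphatase that acts on the C-terminal domain of RNA polymerase II, was at 25.0 CPM (WT1) and 38.2 CPM (WT2) in wild type, 28.5 (pKO1) and 28.6 (pKO2) with the promoter knocked out, 40.1 (pInv), 29.3 (Ctrl) and 27.1 (KD). It was the 1 gene of the 5 with its highest level in pInv, where the interval (32.5 to 49.0) lay above that of WT1 (19.4 to 31.7) and overlapped those of all others. WT2 was at 1.53 times WT1 (1.07 to 2.19) with TMM scaling, and at 1.29 times (0.902 to 1.85), an interval that holds 1, with library totals.

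**Figure D1:**
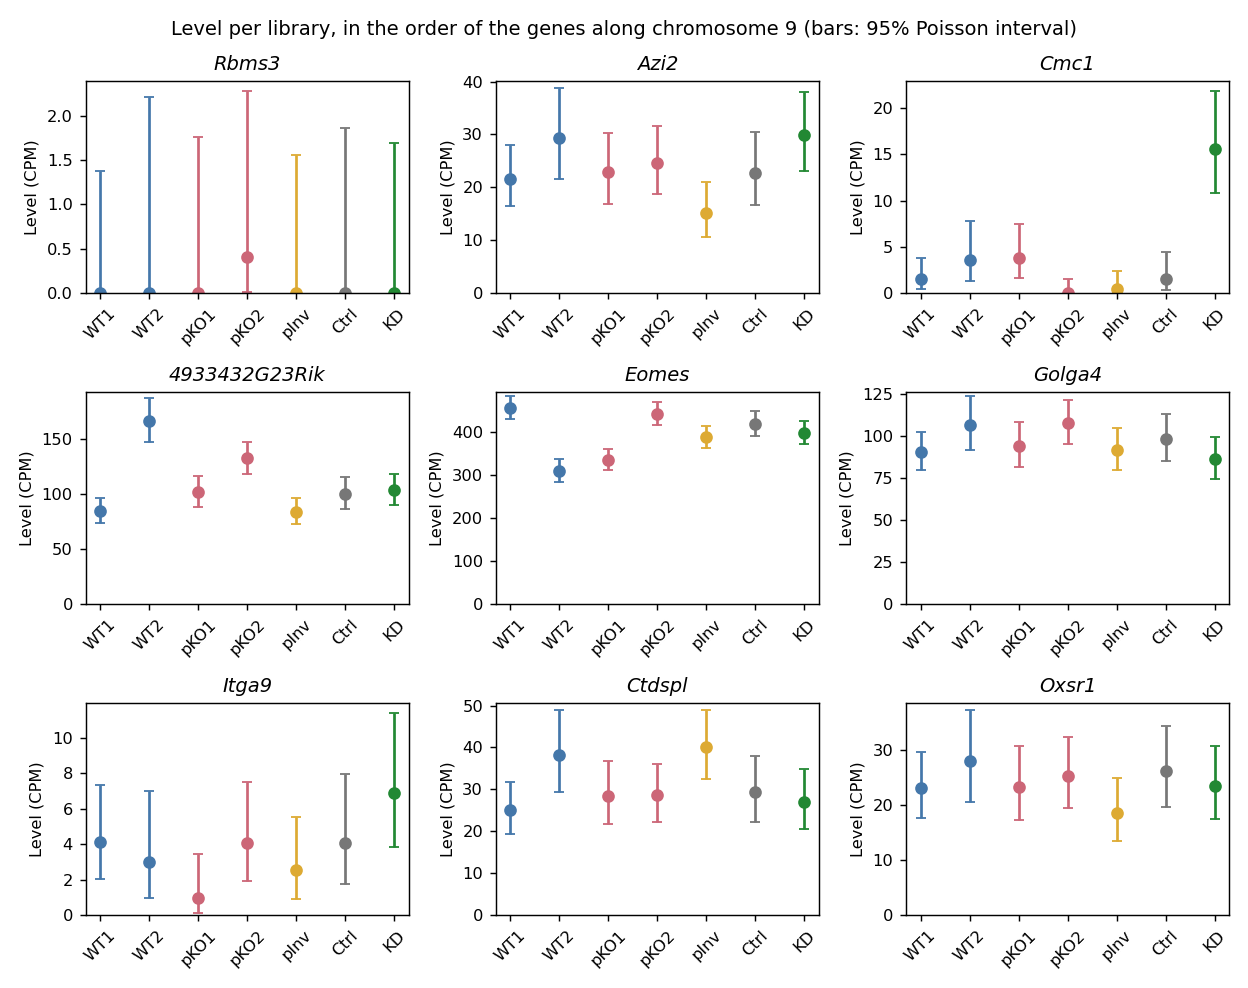
Level in CPM (linear axes from 0) of the 8 neighbours and of Eomes in each of the 7 libraries, in the order of the genes along chromosome 9, with exact Poisson 95% intervals as bars. WT2 and pKO2 were high for 4933432G23Rik, Golga4 stayed between 86.4 and 108 CPM, and Cmc1 was at 15.6 CPM in KD and at 3.80 or less elsewhere.

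The steadiness of these genes can be set beside that of all features. The SD of log2(CPM + 1) over the 7 libraries was 0.12 for Golga4, 0.18 for Oxsr1, 0.25 for Ctdspl, 0.31 for Azi2 and 0.35 for 4933432G23Rik, against 0.20 for Eomes. Its median was 0.25 over the 5 genes and 0.27 over the 4664 tested features with a mean of 20 CPM or more, whose quartiles were 0.20 and 0.38.

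Itga9, the α9 integrin subunit that pairs with β1, had 11 (WT1) and 5 counts (WT2) in wild type, 2 (pKO1) and 10 (pKO2) with the promoter knocked out, 6 (pInv), 8 (Ctrl) and 15 (KD), or 0.951 (pKO1) to 6.90 CPM (KD). Its intervals overlapped in all pairs of libraries but KD above pKO1. Rbms3, an RNA-binding protein, had 1 count in pKO2 and 0 in the other 6 libraries. A count of 0 allows a level of up to 1.12 (WT1) to 1.79 CPM (WT2), taken as 3 counts, so no difference in Rbms3 was detectable at this depth.

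Cmc1, a mitochondrial protein that takes part in assembling cytochrome c oxidase, was high in 1 library. It had 4 (WT1) and 6 counts (WT2) in wild type, 8 (pKO1) and 0 (pKO2) with the promoter knocked out, 1 (pInv), 3 (Ctrl) and 34 (KD). These are 1.49, 3.59, 3.80, 0, 0.422, 1.52 and 15.6 CPM in the same order. The interval of KD (10.8 to 21.8) lay above those of all 6 other libraries, of which the highest upper bound was 7.80, and the only other pair that did not overlap was pKO1 above pKO2. Azi2, whose listed interval overlaps that of Cmc1, was also highest in KD in CPM, with 65 counts against 36 to 60 elsewhere.

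The first comparison asks whether loss of the Meteor promoter went with a different level of the neighbours of Eomes. With 2 libraries a group, 4933432G23Rik was at 125 ± 57.6 CPM for WT and 117 ± 21.6 for pKO (SD, n = 2 each), a log2 difference of −0.09 (SE 0.36). Azi2 was at 25.5 ± 5.40 and 23.7 ± 1.19, a log2 difference of −0.09 (SE 0.35). Golga4 was at 98.8 ± 11.5 and 101 ± 9.67, a log2 difference of 0.03 (SE 0.27). All 3 differences were smaller than their errors.

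Oxsr1 gave 25.6 ± 3.50 CPM for WT and 24.3 ± 1.43 for pKO, with a log2 difference of −0.07 (SE 0.34). Ctdspl gave 31.6 ± 9.36 and 28.6 ± 0.0419, with a log2 difference of −0.13 (SE 0.36). For Itga9 the log2 difference was −0.37 (SE 0.85) and for Cmc1 −0.28 (SE 1.27), from 2 to 11 and from 0 to 8 counts a library. The adjusted p of all 7 tested genes was 1 in edgeR's quasi-likelihood test.

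None of the 8 was called in pKO against WT, beside 0% of the 10265 features tested, so the count says nothing particular about these genes. Unadjusted, 106 features and none of the 8 had p under 0.05, and DESeq2 and limma also called 0 features. The median log2 difference of the 5 well-detected genes was −0.09, with 4 lower in pKO, and that of all features −0.00, with 5146 of 10265 lower. Cmc1 and Itga9 are left out of that median because they passed the filter on low counts only through KD, and Rbms3 did not pass it.

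The promoter inversion has 1 library, which was assumed to vary like WT and pKO. Against WT, the log2 difference was −0.70 (SE 0.45) for Azi2, −0.57 (SE 0.46) for 4933432G23Rik, −0.44 (SE 0.42) for Oxsr1, −0.11 (SE 0.33) for Golga4 and 0.34 (SE 0.43) for Ctdspl. The level of pInv lay below both WT libraries for Azi2, 4933432G23Rik and Oxsr1 and above both for Ctdspl, but for 4933432G23Rik by 83.6 to 84.7 CPM only. These sizes depended on which WT library was used. Without WT1 the difference was −0.98 for 4933432G23Rik and 0.067 for Ctdspl, and without WT2 it was −0.021 and 0.66. Itga9 had −0.39 (SE 1.05) and Cmc1 −1.32 (SE 2.09). All adjusted p were 1 in edgeR's test.

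In pInv against WT, 0 of the 8 genes were called and 0% of the 10265 features. At an unadjusted p under 0.05 there were 152 features and none of the 8, and DESeq2 and limma called 0. The median log2 difference over the 5 well-detected genes was −0.44, beside −0.01 over all features, of which 5216 of 10265 were lower. With 1 library on 1 side, the shared direction of 4 of the 5 is the position of a single library and has no replicate check.

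pInv against pKO, which shares its pInv library with the comparison above, gave log2 differences of −0.61 (SE 0.44) for Azi2, −0.48 (SE 0.46) for 4933432G23Rik, −0.37 (SE 0.42) for Oxsr1, −0.14 (SE 0.33) for Golga4 and 0.48 (SE 0.42) for Ctdspl. The log2 difference was −0.02 (SE 1.07) for Itga9 and −1.04 (SE 2.16) for Cmc1. Again 0 of the 8 and 0% of the 10265 features were called in edgeR's test, with all adjusted p of the 7 tested at 1. At an unadjusted p under 0.05 there were 153 features and none of the 8, and DESeq2 and limma called 0. The median over the 5 was −0.37, beside 0.00 over all features.

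All perturbed groups (pKO, pInv and KD, weighted equally) were also set against both control groups (WT and Ctrl), with the same libraries as above. The log2 difference was −0.23 (SE 0.27) for Oxsr1, −0.15 (SE 0.30) for 4933432G23Rik, −0.11 (SE 0.28) for Azi2, −0.09 (SE 0.22) for Golga4 and 0.05 (SE 0.29) for Ctdspl, with −0.06 (SE 0.66) for Itga9 and 0.46 (SE 1.21) for Cmc1. Itga9 and Cmc1 passed the filter on low counts only through KD, a perturbed library in which both were highest, so nothing is read from their differences. edgeR called 0 of the 8 and 0% of 10265 features, with adjusted p of about 1. Unadjusted, 156 features and none of the 8 had p under 0.05, and DESeq2 and limma called 0 features. The median was −0.11 over the 5 and 0.00 over all features.

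**Figure D2:**
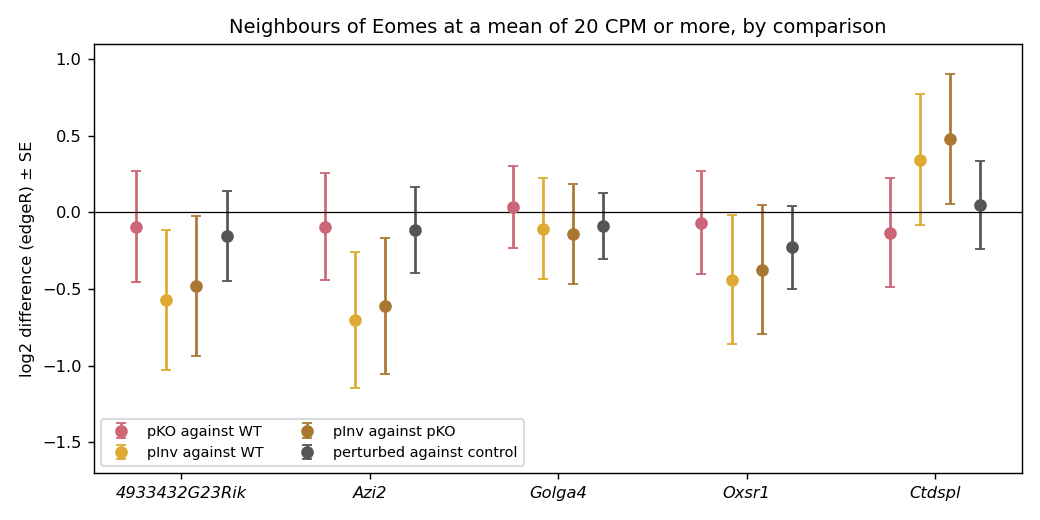
Log2 difference with its SE (edgeR, linear axis) of the 5 neighbours at a mean of 20 CPM or more in the 4 tested comparisons. pKO against WT lies within −0.13 to 0.03, while the comparisons with the single pInv library reach −0.70 (Azi2) and 0.48 (Ctdspl). No difference passed the test.

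KD and Ctrl have 1 library each, so their ratio has no replicate check and no test, and its exact binomial interval covers counting error only. KD over Ctrl was 1.03 (0.85 to 1.26) for 4933432G23Rik, 1.31 (0.884 to 1.97) for Azi2, 0.877 (0.714 to 1.08) for Golga4, 0.892 (0.594 to 1.34) for Oxsr1 and 0.925 (0.633 to 1.35) for Ctdspl. All 5 intervals held 1, and Azi2 was below 1, at 0.949, in the deposited TPM. Scaling by library totals in place of TMM moved every log2 ratio by 0.12, which took Ctdspl to 1.005. Eomes was at 0.948 (0.861 to 1.04), and at 1.03 with library totals.

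Among features at 20 CPM or more in either library, 205 of 5083 were at least 2-fold higher in KD (4.03%), 64 at least 2-fold lower (1.26%) and 269 either way (5.29%). None of the 5 neighbours at that level was among them. Itga9, under that level, had a ratio of 1.70 (0.679 to 4.64), from 15 counts against 8. Cmc1, also under it, had a ratio of 10.3 (3.24 to 52.4), from 34 counts against 3. At a level of 10 CPM, 519 of 7265 features were at least 2-fold higher (7.14%), and Cmc1 was the 1 of 6 neighbours among them. Cmc1 reached that level only in KD, where it was high, so nothing is read from this count. The deposited TPM, in which Cmc1 reached 20.3 in KD, also put it past 2-fold.

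**Figure D3:**
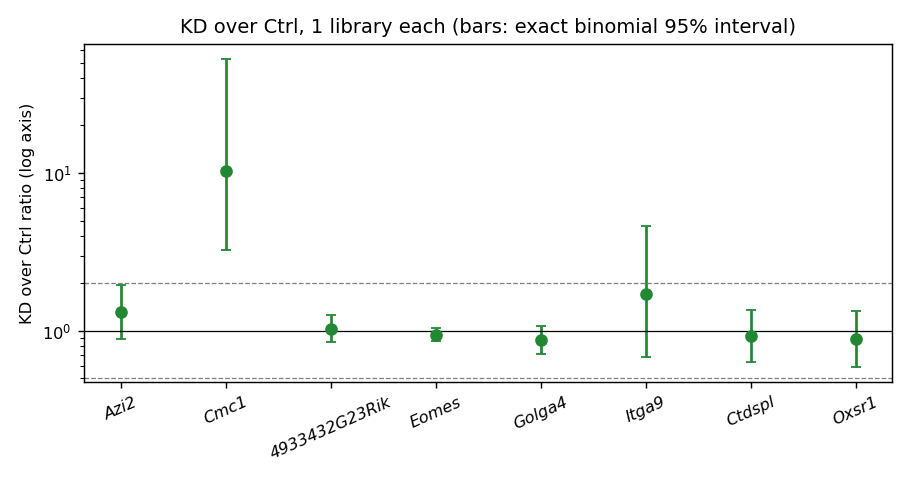
Ratio of KD to Ctrl in CPM (log axis) of the 7 neighbours with counts in both libraries and of Eomes, with exact binomial 95% intervals as bars. Dashed lines mark a 2-fold ratio either way. Cmc1 stands at 10.3 with an interval from 3.24, and the intervals of the others include 1.

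The high level of Cmc1 was seen in the KD library alone, and a wider look at that library was added after its values were seen. Features at 10 CPM or more and at least 4 times as high as in every other library numbered 114 of 6829 in KD (1.67%), and 1 or 2 in each of the other 6 libraries. Of the 114, 2 lie in the window of 40 coding genes on each side of Eomes, Cmc1 and Tgfbr2. Both reached 10 CPM only in KD, and the search followed the sight of Cmc1, so nothing is read from this count. Tgfbr2, the type II receptor of TGF-β and the coding gene in place 6 upstream, had 3 (WT1) and 2 counts (WT2) in wild type, 0 (pKO1) and 3 (pKO2) with the promoter knocked out, 0 (pInv), 2 (Ctrl) and 40 (KD). Its KD level was 18.4 CPM, and its ratio to Ctrl was 18.2 (4.72 to 155).

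Of the macrophage markers, Lyz2 and Csf1r were high in the same library and the others on the list were not. The summed level of the 5 markers was 188 CPM in KD and 1.01 to 1.87 in the other 6 libraries. Most of it was Lyz2, a lysozyme, at 174 CPM in KD and 0 to 0.746 elsewhere. Csf1r, the receptor that macrophages need to survive, was at 12.4 CPM in KD and at 0 elsewhere. Ptprc and C1qa, which also define the list, were at 0 in KD. Cd68 was at 1.84 CPM in KD, near the 1.63 of pKO2, and at 0.506 in Ctrl. With Lyz2 and Csf1r, it makes up the 3 of the 5 that were higher in KD than in Ctrl. Feeder fibroblast markers summed to 5.52 CPM in KD and 2.02 to 6.57 over all libraries. Of these, Postn, Dcn and Lum were at 0 in KD, while Col1a2 was at 2.76 CPM in KD and at 0 elsewhere. Whether these markers bear on the counts of Cmc1 and Tgfbr2 was not tested.

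**Figure D4:**
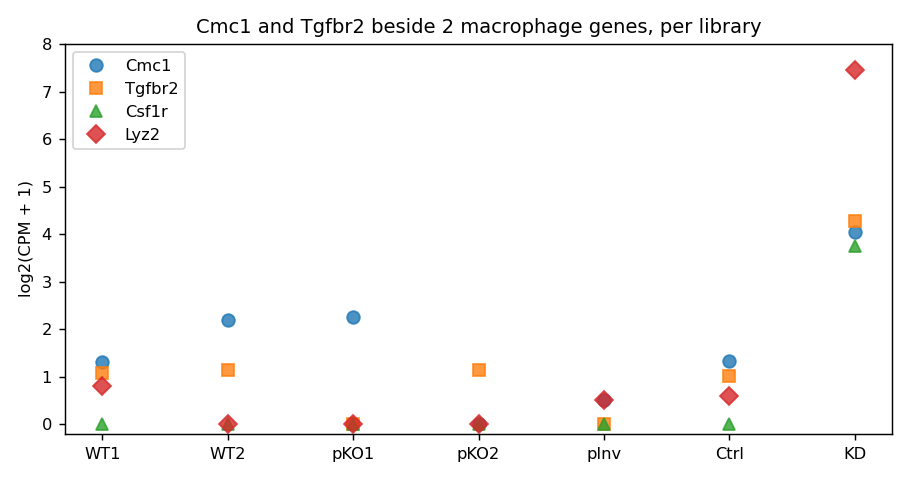
Levels of Cmc1, Tgfbr2 and the macrophage genes Csf1r and Lyz2 in each library, as log2(CPM + 1). All 4 are highest in KD, where Cmc1 is at 15.6 CPM and Lyz2 at 174.

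The 8 genes were also placed in their wider surroundings. Of the 80 coding genes around Eomes, 76 were matched to a single row and 1 to a merged row, and 43 passed the filter on low counts. None was called in any of the 4 tested comparisons, beside 0% of the 10265 features tested, so this says nothing particular about the window. Of the 43, 6 passed only through KD (Tgfbr2, Cmc1, Itga9, Dlec1, Myd88 and Slc25a38). The median log2 difference of the other 37 was 0.0084 in pKO against WT (18 lower), −0.14 in pInv against WT (24 lower), −0.18 in pInv against pKO (25 lower) and 0.04 in perturbed against control (17 lower), beside −0.00, −0.01, 0.00 and 0.00 over all features. Over all 10265 features, 5146, 5216, 5123 and 5113 were lower, in the same order.

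Leaving out the 8 neighbours, whose values are given above, the well-detected window genes with the largest differences in pKO against WT were Tmppe, a metallophosphoesterase, at 23.5 and 41.2 CPM in the WT libraries against 38.0 and 53.9, and Dync1li1, a dynein light intermediate chain, at 38.4 and 15.5 against 41.4 and 26.6. Their log2 differences were 0.51 (SE 0.39) and 0.30 (SE 0.48), and both pairs of groups overlapped. In pInv against WT they were Ctnnb1, which encodes β-catenin, at 297 CPM against 287 and 93.2, with 0.63 (SE 0.59), and Ubp1, a transcription factor, at 146 against 113 and 82.5, with 0.57 (SE 0.33). In pInv, Ctnnb1 lay close to WT1 and far above WT2.

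In pInv against pKO the largest, again without the 8 neighbours, were Eif1b, a translation initiation factor, at 116 CPM against 78.0 and 71.9, with 0.62 (SE 0.33), and Rpsa, a ribosomal protein, at 3113 against 2244 and 2211, with 0.48 (SE 0.30). In perturbed against control they were Ctnnb1 at 0.46 (SE 0.40) and Trim71, a regulator of stem cell mRNAs, at −0.38 (SE 0.26). All adjusted p of these genes were about 1 in edgeR's test.

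**Figure D5:**
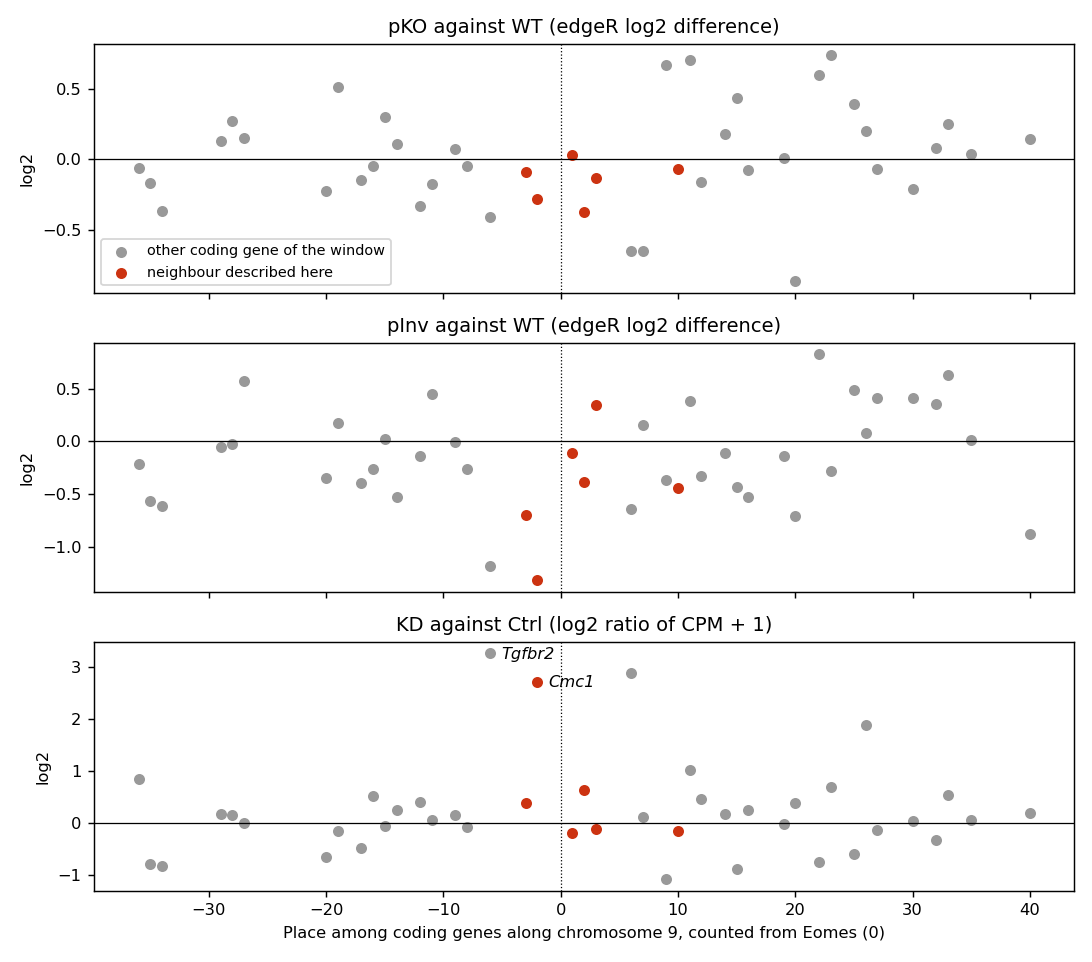
Log2 differences of the coding genes on each side of Eomes that passed the filter on low counts, by place from Eomes (0; negative is upstream), in pKO against WT and pInv against WT (edgeR) and as the log2 ratio of CPM + 1 in KD against Ctrl. Red points are the neighbours described here. In the lowest panel Tgfbr2 and Cmc1 stand high in KD, and so does Dlec1, in place 6 downstream, with 14 counts in KD, 2 in WT2 and 0 elsewhere. Tgfbr2, Cmc1 and Dlec1 passed the filter only through KD, so nothing is read from their height in that panel.

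Whether a neighbour's level followed that of Eomes was asked over the 7 libraries. Pearson's r of log2(CPM + 1) with Eomes was −0.51 for 4933432G23Rik (exact permutation p = 0.229), −0.26 for Azi2 (0.582), −0.22 for Golga4 (0.633), −0.21 for Oxsr1 (0.663), −0.58 for Ctdspl (0.146), −0.40 for Cmc1 (0.388) and 0.57 for Itga9 (0.186), all two-sided by exact permutation. Spearman's rho was −0.32, −0.29, −0.14, −0.21, −0.54, −0.50 and 0.68 in the same order. After Benjamini-Hochberg adjustment over the 10264 features the exact permutation p of these r was 0.872 to 0.935, and that of each rho was 1.

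No neighbour and 0% of the 10264 features passed, 531 features had an unadjusted exact p under 0.05, and the smallest adjusted p was 0.509. Without WT2 and pKO1, the libraries farthest from the median of Eomes, r was 0.26 for 4933432G23Rik, 0.24 for Azi2, 0.45 for Golga4, 0.57 for Oxsr1, −0.71 for Ctdspl, −0.36 for Cmc1 and 0.06 for Itga9. The negative r of the first 4 genes therefore rested on those libraries. Cmc1 and Itga9 passed the filter on low counts only through KD, where both were highest, so nothing is read from their r or rho. All 7 values share their libraries, and WT2, the lowest library for Eomes, also had the lowest depth.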

How the data were processed

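Polyadenylated RNA of 7 libraries was prepared with the Lexogen QuantSeq 3′ kit, per the labels' protocols. The submitters' processing notes name RSEM, with no version, and the mouse build mm9. The authors deposited expected counts per gene without normalization, which were rounded to whole numbers here. The TPM deposited by the authors, scaled to length and library, served as an alternative, and FPKM was not used. Trimming, strand and duplicate handling have no description in the sources used here. Names and gene order came from a RefSeq table of GRCm38, a later build, so no coordinates of the files are given. Of 24990 features, 23447 matched 1 gene there, 375 were merged, 1132 were extra copies of a transcript, 1 carried a gene name and 35 had no match.

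The members, lists and tests were chosen with earlier results of these data known. The rounded counts went into edgeR 4.0.16 (R 4.3.3): filterByExpr kept 10265 features, and all libraries entered 1 quasi-likelihood fit by group with TMM scaling, no covariate and a prior count of 2. That prior count shrank the log2 differences, while each SE is that of the difference before shrinkage. At the few counts of Cmc1 and Itga9, a difference therefore cannot be judged by its SE. The spread rested on 2 residual degrees of freedom, a moderated prior of 5.86 and a biological coefficient of variation of 0.294. The call threshold was 0.05 on the p adjusted by the Benjamini-Hochberg method. KD and Ctrl were compared by size, at 2-fold or more and 20 CPM or more in either. Named beside the 8 genes and Eomes were the 2 window genes at 20 CPM or more with the largest log2 difference in each comparison, and the 3 genes most like each well-detected member. Tgfbr2, Dlec1, Myd88 and Slc25a38 were chosen after their values were seen. DESeq2 1.42.0 and limma 3.58.1 on log2(TPM + 1) were alternatives. The fit was tested on simulated counts, with 50 features changed at each fold. At 2-fold it recovered 8% in pKO against WT, 4% in pInv against WT, 0% in pInv against pKO and 10% in perturbed against control. At 4-fold it recovered 50%, 44%, 28% and 76% in the same order. Most 2-fold changes would thus be missed, so a gene that was not called may still differ.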

Additional observations from a re-analysis of the deposited data

How the results depend on the processing

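None of the 8 genes was called in the 4 tested comparisons under any alternative run, which were other size factors, DESeq2, limma on log2(TPM + 1), no filter on low counts, no 45S precursor, groups by the genotype field, and WT1, WT2, pKO1 and pKO2 left out in turn. KD, Ctrl and pInv were left out in turn for perturbed against control only. Most of these runs called 0 features of any kind, so the count says nothing particular about the 8 genes. Rbms3 never passed the filter on low counts, and Cmc1 and Itga9 did not pass it without KD. Without the filter, edgeR called 9 features in pKO against WT and 6 in pInv against WT, with 8 in pInv against pKO and 11 in perturbed against control. Grouping by the genotype field called 7 for pInv against WT. Leaving out a library gave 0 to 7 features for pKO against WT (4 without pKO1, 7 without pKO2) and 0 to 7 for pInv against pKO (2 without pKO1, 7 without pKO2). The cause was not tested. In KD against Ctrl, 694 of 7265 features passed 2-fold at 10 CPM and 75 of 2625 at 50 CPM, in place of 269 of 5083. Cmc1 was the 1 of 6 neighbours past 2-fold at 10 CPM. With the deposited TPM, 316 features passed, Cmc1 among them. Cmc1 was high only in KD, so nothing is read from these counts.

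Replicate numbers are shared by WT and pKO. Over the 10265 features tested, the number 1 minus number 2 difference in WT had a correlation of 0.311 with that in pKO, from 2 pairs of libraries. The labels do not say what a shared number stands for, and 2 pairs do not decide whether it pairs the libraries. With the replicate block on these 4 libraries alone, 0 features were called, and the log2 differences were −0.03 (4933432G23Rik), −0.08 (Azi2), 0.04 (Golga4), −0.06 (Oxsr1) and −0.11 (Ctdspl).

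Signs were not stable. Under the genotype field, pKO against WT became 0.21 for 4933432G23Rik, 1.58 for Cmc1, 0.34 for Azi2, −0.015 for Golga4, 0.21 for Oxsr1 and 0.094 for Itga9. pInv against WT became 2.08 for Cmc1, 0.19 for Azi2, 0.082 for Oxsr1 and −0.26 for Ctdspl, and pInv against pKO 0.50 for Cmc1 and −0.13 for Ctdspl. Perturbed against control became 0.075 for 4933432G23Rik, 0.27 for Azi2, 0.0019 for Oxsr1 and −0.13 for Ctdspl. limma gave 0.032 for 4933432G23Rik in pKO against WT, 0.12 for Itga9 in pInv against pKO and 0.013 for Itga9 in perturbed against control.

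With a library left out, pKO against WT ranged from −0.50 to 0.48 for 4933432G23Rik, −0.29 to 0.15 for Azi2, −1.89 to 0.50 for Cmc1, −0.41 to 0.21 for Ctdspl, −0.080 to 0.18 for Golga4, −1.27 to 0.15 for Itga9 and −0.20 to 0.090 for Oxsr1. In pInv against WT the range was −0.98 to −0.021 for 4933432G23Rik, −0.91 to −0.49 for Azi2, −0.22 to 0.012 for Golga4, −0.57 to −0.31 for Oxsr1, 0.067 to 0.66 for Ctdspl, −0.55 to −0.18 for Itga9 and −1.73 to −0.87 for Cmc1. In pInv against pKO, Cmc1 ranged from −1.81 to 0.55, Itga9 from −0.56 to 0.88, 4933432G23Rik from −0.68 to −0.28 and Golga4 from −0.26 to −0.042. In perturbed against control the range was −0.36 to 0.13 for 4933432G23Rik, −0.32 to 0.14 for Azi2, −0.073 to 1.24 for Cmc1, −0.12 to 0.22 for Ctdspl and −0.36 to 0.14 for Itga9. The r with Eomes turned without WT2, to 0.10 for 4933432G23Rik, 0.10 for Azi2, 0.28 for Golga4 and 0.31 for Oxsr1. Library totals in place of TMM moved every log2 ratio of WT2 to WT1 by −0.25.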

Other observations

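Out of 4537 candidate genes with a mean level of at least 20 CPM, a few had a pattern over the 7 libraries close to that of a neighbour, by Pearson's r of log2(CPM + 1), given as a description of these libraries. For 4933432G23Rik they were Ppm1a (0.99), Nifk (0.99) and Prmt1 (0.98). Prmt1, an arginine methyltransferase, was at 867 (WT1) and 1614 CPM (WT2), 1025 (pKO1) and 1415 (pKO2), 817 (pInv), 1107 (Ctrl) and 1063 (KD), with WT2 and pKO2 highest as for the noncoding gene. For Azi2 they were Klf13 (0.99), Tmed8 (0.98) and Psma3 (0.97), all lowest in pInv and highest in KD. For Golga4 they were Tmed5 (0.98), Nelfe (0.97) and Zcchc9 (0.96). For Oxsr1 they were Ndufs7 (0.99), Rhobtb2 (0.98) and Gtf3c1 (0.98), all lowest in pInv. For Ctdspl they were Pcm1 (0.99), Ppid (0.98) and Rpl13 (0.98). All of these genes were picked by this likeness, so a highest or lowest library shared with the neighbour follows from the choice. None was picked for its place on a chromosome.

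Platr11, the noncoding gene whose listed interval overlaps that of 4933432G23Rik, was the 1 row under a gene name of its own. It had 9 counts in WT1, 2 in WT2, 2 in KD and 0 in pKO1, pKO2, pInv and Ctrl. As CPM of the library total these are 3.51 in WT1 (exact Poisson 95% interval 1.60 to 6.66), 1.05 in WT2 and 0.971 in KD, and the upper bounds of the libraries at 0 were 1.74 (pKO1), 1.54 (pKO2), 1.63 (pInv) and 1.81 (Ctrl) by the same interval. That of WT1 overlapped all of these but pKO2. The row was not tested, since its counts are near the detection limit in 6 of the 7 libraries.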
